A study of Homo sapiens with 3 samples.

Results

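The genes described here build the centromere, the kinetochore and the spindle assembly checkpoint. They were taken from the deposited coverage table as every symbol made of CENP and a single letter (17 genes) and 28 listed genes, all of which were present. The resulting 45 genes are 45 of the 18877 symbols in the table and hold 78 of its 29156 rows, each row being a RefSeq transcript. The cells were A2780, an established human line from an undifferentiated ovarian tumour. The study sequenced poly-A RNA of miR-181a pool 1 and miR-181a pool 2, which stably carried the p181a construct, and of a control that stably carried the empty pBABE vector, with 1 library each. The title of the series states the aim of finding miR-181a target genes. The labels describe the miR-181a cells both as polyclonal pools and as clones, so it is not certain how many founder cells each pool had. The table names no miR-181 precursor, so the level of the microRNA itself could not be checked. Values are the authors' coverage, the median read density over 50 bp windows along a transcript, which is per base and so can be set side by side between genes. Unless another scaling is named, every level and log2 difference is on the coverage as deposited. The pools are separate infected populations and not repeat libraries, and the vector library has no replicate. Each p-value compares the pools with the vector library, and its spread is estimated only from the difference between the pools.

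The centromere is the chromosomal site on which the kinetochore is assembled. Nucleosomes with the histone variant CENPA mark it, an inner layer of CENP proteins binds them, and the MIS12, KNL1 and NDC80 complexes reach out from that layer to spindle microtubules. Kinetochores without microtubules recruit the BUB and MAD proteins, which hold back the anaphase-promoting complex until every chromosome is attached, while Aurora B and its partners release faulty attachments. Most of these genes are transcribed in late S, G2 and M phase, and many of their promoters bind the MuvB complex and its partners at an element called the cell cycle genes homology region (CHR). In bulk RNA, more cells in G2 and M and more RNA per cell cannot be told apart.

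A possible link of these genes to the microRNA was looked for as matches to the seed of miR-181a in their 3′ untranslated regions. Whether any match is a working target site was not tested. The mature strand in RefSeq (hsa-miR-181a-5p, from MIR181A1, GRCh38.p14 chr1:198859108-198859130, minus strand) is shown with its seed, bases 2 to 8, in capitals.
hsa-miR-181a-5p: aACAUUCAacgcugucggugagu
A seed match was either TGAATGT, the complement of bases 2 to 8, or GAATGTA, the complement of bases 2 to 7 followed by A. Of 43 members with an annotated 3′ untranslated region, 8 held a match, which is 18.6%, against 3222 of 12230 tested genes, which is 26.3%. The untranslated regions of the members were also shorter, with a median of 833 bases against 1237 bases for all tested genes. The 8 members were BIRC5, BUB3, CASC5, CENPI, CENPO, CENPV, INCENP and NSL1. CENPI is shown because it was the only 1 of these 8 that lay below the vector library in both pools, and BUB3 because it held the most matches, 3, the first pair of them close together. The matched letters are in capitals, on GRCh37, the assembly the files' hg19 build corresponds to.
CENPI, chrX:100417958-100417964, plus strand: aTGAATGTtgacataaactgaacacactgg
BUB3, chr10:124924878-124924884, plus strand: tgcagaaccctTGAATGTtggatgtttttg
BUB3, chr10:124924895-124924901, plus strand: ttggatgttttTGAATGTtggtaattaata
BUB3, chr10:124925775-124925781, plus strand: ggccttttgggTGAATGTggcagcctccaa
The median log2 difference, pools minus vector, was 0.33 for members with a match and 0.43 for members without. Over all tested genes it was 0.08 for genes with a match and 0.08 for genes without.

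The promoters of the members share letters that the choice of members did not use. RefSeq promoters, from 250 bases before to 50 bases after the start of the gene on GRCh38.p14, were matched for 37 of the 45 members. They are printed for the members that passed the test or the size threshold upward (CENPF and ZWILCH) and for those that passed the test downward (CENPA and CENPK), with every match in capitals on either strand. The letters searched were TTTGAA and TTCGAA, the core of the CHR, CCAAT, the box bound by NF-Y, and GCGGGAA, a form of the E2F site. Read on the other strand, CCAAT appears as ATTGG and GCGGGAA as TTCCCGC, and matches of different kinds were allowed to overlap.
CENPF, chr1:214602945-214603244, plus strand: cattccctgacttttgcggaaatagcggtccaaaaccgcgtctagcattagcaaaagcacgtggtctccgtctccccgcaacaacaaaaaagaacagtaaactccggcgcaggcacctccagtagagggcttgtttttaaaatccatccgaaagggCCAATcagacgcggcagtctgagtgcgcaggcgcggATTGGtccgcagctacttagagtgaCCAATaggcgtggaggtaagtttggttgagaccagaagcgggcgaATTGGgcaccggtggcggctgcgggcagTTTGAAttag
ZWILCH, chr15:66505076-66505375, plus strand: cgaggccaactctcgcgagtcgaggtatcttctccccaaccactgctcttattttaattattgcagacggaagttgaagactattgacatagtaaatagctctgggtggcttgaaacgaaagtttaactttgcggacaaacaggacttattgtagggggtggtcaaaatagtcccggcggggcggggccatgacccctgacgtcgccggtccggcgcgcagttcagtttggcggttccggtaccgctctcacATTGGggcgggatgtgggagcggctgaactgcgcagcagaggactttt
CENPA, chr2:26785806-26786105, plus strand: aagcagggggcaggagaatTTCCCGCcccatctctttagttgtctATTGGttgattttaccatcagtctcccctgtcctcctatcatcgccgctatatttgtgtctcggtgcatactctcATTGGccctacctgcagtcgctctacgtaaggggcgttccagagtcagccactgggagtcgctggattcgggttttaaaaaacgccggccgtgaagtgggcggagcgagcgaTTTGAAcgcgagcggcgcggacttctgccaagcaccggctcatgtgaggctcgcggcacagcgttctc
CENPK, chr5:65563119-65563418, minus strand: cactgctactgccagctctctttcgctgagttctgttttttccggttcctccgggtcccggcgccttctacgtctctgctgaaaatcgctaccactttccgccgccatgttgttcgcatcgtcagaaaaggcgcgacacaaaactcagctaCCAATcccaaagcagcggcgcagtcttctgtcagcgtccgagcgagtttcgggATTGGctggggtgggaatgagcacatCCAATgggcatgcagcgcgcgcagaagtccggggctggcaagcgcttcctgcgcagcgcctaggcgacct

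TTTGAA or TTCGAA was found in 18 of the 37 member promoters, or 48.6%, against 11.9% of the promoters of 10154 tested genes and 16.6% of all 27305 promoters in the table. CCAAT was found in 56.8% of member promoters, 37.3% of those of tested genes and 35.7% of all. GCGGGAA was found in 18.9%, 10.1% and 6.56% of the same sets. All 3 kinds of letters stood together in the promoters of CENPA, CENPN, SPC25 and ZW10, which is 10.8% of the members, against 0.42% of tested genes and 0.27% of all promoters. The 18 tested members with the CHR letters had a median log2 difference of 0.31, pools minus vector, with CENPA at -3.90 as the lowest and CENPF at 1.50 as the highest. The 18 tested members without them had a median of 0.53, with CENPK lowest at -2.09 and ZWILCH highest at 1.15. The lowest and the highest member were thus both in the group with the CHR letters.

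The libraries differ in ways that touch these genes. The coverage summed over all rows was 907092 in pool 1, 719263 in pool 2 and 798228 in the vector library. Of all rows, 32.3%, 32.2% and 12.8% were listed at 0. There were 8822 rows at 0 in both pools, and 62.9% of them were above 0 in the vector library. Of the 9 epithelial and ovarian carcinoma markers, 7 were at 0 in each pool and 3 in the vector library, and their summed coverage was 15.8 and 15.4 in pools 1 and 2 and 130 in the vector library. The markers of this list were thus mostly at 0 in the pools, and some of them also in the vector library. These data do not show whether A2780 cells without a construct carry them. WT1, KRT7 and CDH1 were at 0 in all 3 libraries. PAX8 and EPCAM were at 0 in both pools and at 4.71 and 66.3 in the vector library. KRT8 (13.4, 10.5 and 27.0 in pool 1, pool 2 and the vector library) and KRT18 (2.38, 4.91 and 13.9) were above 0 in all 3. The endothelial list (4 genes) summed to 0 and 0.037 in the pools and 220 in the vector library. The leukocyte list (5 genes) summed to 2.36 and 2.44 in the pools and 33.5 in the vector library. The fibroblast list (5 genes) summed to 1553 and 1209 in the pools and 448 in the vector library. Its largest values were those of COL3A1 (986, 717 and 249 in pool 1, pool 2 and the vector library) and DCN (480, 420 and 144). Of its 4 tested genes, 3 were above the vector library in both pools. COL1A1 went the other way, at 0 and 0.706 in the pools and 7.41 in the vector library. The proliferation markers MKI67, TOP2A and PCNA were each above the vector library in both pools and summed to 457 and 372 in the pools and 214 in the vector library. The part of these differences in the results below was not tested. For members with a marked vector excess, the share of the 8822 rows at 0 in both pools whose vector value was at least as large as that excess stands beside the result.

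CENPF was the only member that passed the test upward, and CENPA and CENPK were the only members that passed it downward. The test was limma on log2(coverage + 1) over 12552 genes with Benjamini-Hochberg adjustment at 0.05. Of the 45 members, 44 were tested, and SGOL2 was not because its vector value is blank. The count upward, 1 of 44 (2.27%), stands beside 126 of all tested genes, or 1.00%. The count downward, 2 of 44 (4.55%), stands beside 2725 genes, or 21.7%. The shares of all tested genes, here and below, are taken over genes that include 1535 at 0 in both pools. Those genes passed the coverage filter only through their vector value and, as deposited, could only lie below the vector library. No member was at 0 in a pool, so neither the downward nor the upward shares are a like background for the members. A size threshold asked that each pool differ from the vector library by 1 log2 unit or more in a shared direction. It was passed upward by CENPF and ZWILCH, against 2.53% of tested genes. It was passed downward by CENPA, CENPJ, CENPK and SKA2, which is 9.09% of the members, against 27.3% of tested genes. The calls follow the scaling, for members and for all genes alike. As deposited, the offset of a whole pool against the other is part of the spread of every gene. A scaling that removes this offset therefore changes the spread as well as the log2 difference. AURKB did not pass at -0.95 as deposited, and passed downward at -0.53 with library medians set equal. With library medians set equal, 30 members passed upward and 6 downward, against 50.6% and 29.5% of all tested genes. After quantile normalization the counts were 19 and 4, against 36.6% and 24.0%. With each pool shifted by genes of high coverage, 3 members passed upward and 11 downward, against 8.28% and 42.9%, or 2 and 12, against 5.66% and 46.1%, when high coverage was judged in the pools alone.

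More members were above the vector library than below it. As deposited, 29 of 44 (65.9%) were above it in both pools, against 44.6% of tested genes, and 10 (22.7%) were below it in both, against 41.8%. The other 5, BIRC5, CASC5, CENPQ, SGOL1 and SKA3, lay on opposite sides in the pools. The median log2 difference of the members was 0.38 (0.50 in pool 1 and 0.18 in pool 2), against 0.07 for all tested genes (0.24 and -0.12), but it was -0.0044 and -0.09 with each pool shifted by genes of high coverage. The members' median exceeded the median of all tested genes by 0.31 as deposited, a gap that a shift of a whole library leaves as it is, and by 0.24 after quantile normalization. The median of all tested genes is lowered by genes that passed the coverage filter only through their vector value, so it is not a like background. Beside genes of similar level, given below, the members' median was higher in some ranges and lower in others.

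**Figure D1:**
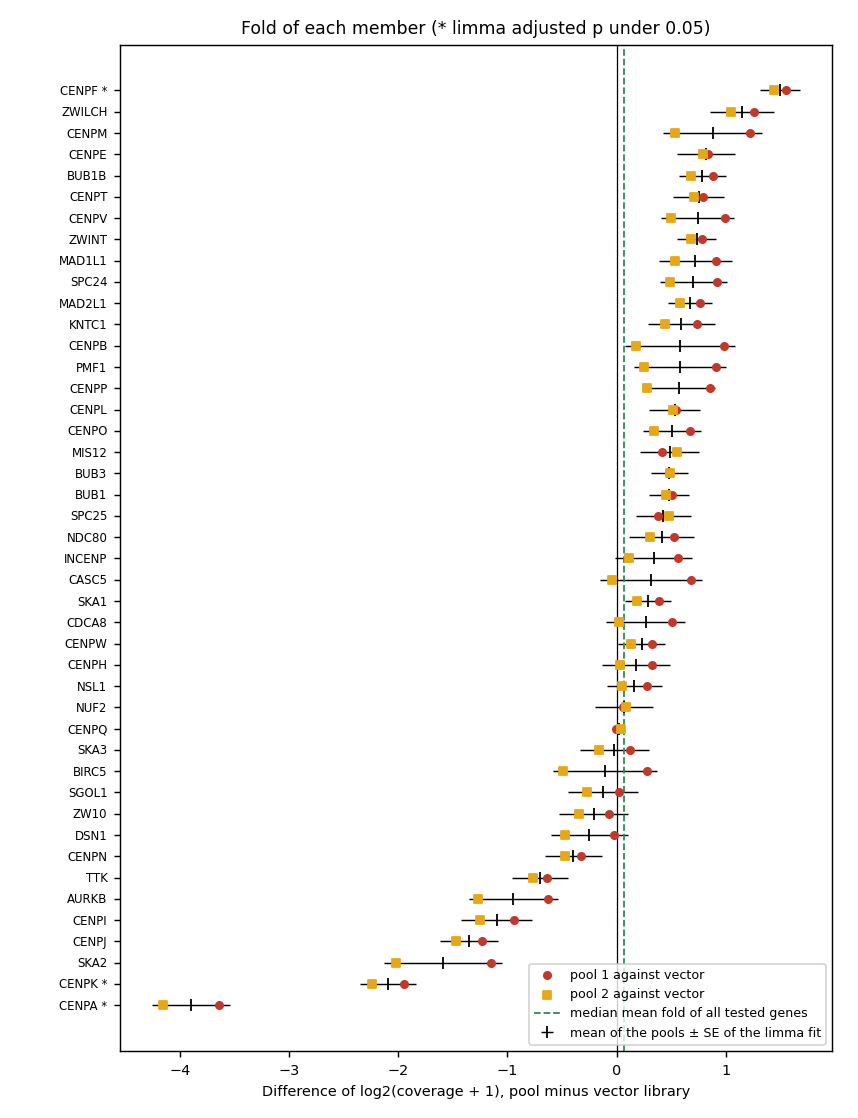
Log2 difference in coverage as deposited, each miR-181a pool minus the pBABE vector library (x axis, log2 of coverage + 1), for the 44 tested genes ordered by their mean difference. Circles are pool 1, squares pool 2, black ticks with bars the mean of the pools ± SE of the limma fit, the dashed line is the median of all tested genes (0.07) and asterisks mark an adjusted p under 0.05; CENPF and ZWILCH lie above 1 in both pools, and CENPA, CENPK, CENPJ and SKA2 lie below -1 in both.

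CENPA, the histone H3 variant that marks the centromere, was 21.1 in pool 1 and 14.4 in pool 2, against 274 in the vector library. Both pools were far below the vector library, where CENPA was the highest of all members. The mean of the pools was 15.4-fold lower, a log2 difference of -3.90 (SE 0.35, as for all genes from 2 pools and 1 vector library, adjusted p = 0.0281 by limma with Benjamini-Hochberg adjustment). The call held under 9 of the 10 alternatives and was lost without a variance trend (adjusted p = 0.0705). Of the 8822 rows at 0 in both pools, 0.431% had a vector value as large as the excess of CENPA. Its other row, NM_001042426, read 19.9, 13.2 and 275 in pool 1, pool 2 and the vector library. The gene spans chr2:26987157-27023935 (plus strand, GRCh37) and overlaps SLC35F6 on the same strand, listed as C2orf18, which read 44.9, 29.4 and 29.0 in the same order and so showed no such vector excess. CENPB, which binds a short box in alphoid satellite DNA, read 72.1 and 41.0 in the pools and 36.0 in the vector library, a log2 difference of 0.58 (SE 0.50) that did not pass the test.

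The inner kinetochore, the layer of CENP proteins that sits on centromeric chromatin, showed no common direction. Of its 11 members 7 were above the vector library in both pools and 3 below in both, against 44.6% and 41.8% of all tested genes. The median log2 difference of the 11 was 0.23. CENPK, a partner of CENPH and CENPI, read 24.0 and 19.3 in the pools and 95.2 in the vector library. Its mean was 4.39-fold lower in the pools, a log2 difference of -2.09 (SE 0.26, adjusted p = 0.0492 by limma with Benjamini-Hochberg adjustment), with both pools well below the vector library. That call held under 5 of the 10 alternatives and was lost without a filter, with a pseudocount of 10, with either other choice of row and without a variance trend, with adjusted p between 0.052 and 0.0768 by limma, and 1.71% of rows at 0 in both pools had as large a vector value. CENPK lies at chr5:64813593-64858995 on the minus strand (GRCh37).

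The partners of CENPK did not show a difference of that size. CENPH was 11.9 and 9.57 in the pools and 9.33 in the vector library, a log2 difference of 0.18 (SE 0.31). CENPI was 9.90 and 7.80 in the pools and 19.9 in the vector library, so both pools were lower, with a log2 difference of -1.10 (SE 0.32) that did not pass the test (adjusted p = 0.182 by limma), and 14.9% of rows at 0 in both pools had as large a vector value. It is also the member printed above with a seed match at the second base of its untranslated region. CENPM, a further subunit of the same subcomplex, was 47.0 and 28.7 in the pools and 19.5 in the vector library, with a log2 difference of 0.88 (SE 0.45). CENPT, which forms a second route from chromatin to the NDC80 complex, was 28.0 and 26.4 in the pools and 15.7 in the vector library, with a difference of 0.75 (SE 0.23, adjusted p = 0.191 by limma).

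CENPN, which reads the CENPA nucleosome, was 18.2 and 16.3 in the pools and 23.0 in the vector library in the row used. CENPW, the histone-fold partner of CENPT, was 54.0 and 46.9 in the pools and 42.8 in the vector library. CENPL, the partner of CENPN, was 10.0 and 9.85 in the pools and 6.57 in the vector library. Neither CENPN, CENPW nor CENPL passed the test. CENPO, CENPP and CENPQ belong to a further subcomplex of this layer, and differed by 0.51, 0.57 and 0.02 log2 units with none passing. CENPQ had the lowest pool mean of all members, 3.48, and its 3 values of 3.41, 3.55 and 3.42 in pool 1, pool 2 and the vector library were close together.

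Genes of the MIS12 complex, the bridge between the inner layer and the microtubule-binding proteins, had a median log2 difference of 0.32, and none passed. PMF1 was 121 and 76.1 in the pools and 63.8 in the vector library, a difference of 0.58 (SE 0.42), with pool 1 well above pool 2. MIS12 itself was 17.4 and 19.3 in the pools and 12.8 in the vector library, a difference of 0.49 (SE 0.27). NSL1 was 31.2 and 26.5 in the pools and 25.6 in the vector library. DSN1 was 23.8 and 17.2 in the pools and 24.2 in the vector library in the row used, and its other rows are given below. CASC5, the older symbol of the scaffold KNL1 that collects the BUB proteins, was 11.3 and 6.47 in the pools and 6.69 in the vector library. ZWINT, which binds that scaffold and helps recruit the RZZ complex, had the highest pool mean of all members at 150. It was 156 and 145 in the pools and 90.0 in the vector library, a log2 difference of 0.73 (SE 0.18, adjusted p = 0.139 by limma), with both pools clearly above the vector library.

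All 4 genes of the NDC80 complex, the main microtubule attachment of the kinetochore, were above the vector library in both pools as deposited. The same held for 44.6% of all tested genes. NDC80, SPC25 and NUF2 turned below the vector library when each pool was shifted by genes with a pool mean above 50. SPC24 was 71.2 and 52.4 in the pools and 37.1 in the vector library, a log2 difference of 0.70 (SE 0.31). SPC25 was 20.7 and 22.2 in the pools and 15.6 in the vector library, a difference of 0.43 (SE 0.25). NDC80 was 17.8 and 15.1 in the pools and 12.1 in the vector library, a difference of 0.41 (SE 0.30). NUF2 was close to level, at 15.8 and 16.1 in the pools and 15.1 in the vector library, and none of the 4 passed the test. RGS5, which overlaps NUF2 on the opposite strand, was 0 and 0.202 in the pools and 293 in the vector library. SPC25 overlaps G6PC2, which was at 0 in both pools and at 61.8 in the vector library. The library protocol in the labels has no step that marks strand, and 12 of the 44 members with an annotated span are overlapped by a protein-coding gene on the opposite strand.

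The SKA complex keeps kinetochores on shortening microtubules, and its 3 genes went different ways. SKA2 was 40.9 and 21.9 in the pools and 92.0 in the vector library in the row used, a log2 difference of -1.59 (SE 0.54) that did not pass the test (adjusted p = 0.209 by limma). Both pools were below the vector library, 2.24% of rows at 0 in both pools had as large a vector value, and the other SKA2 row showed no such difference. SKA1 was 7.88 and 6.68 in the pools and 5.77 in the vector library. SKA3 was 16.9 and 13.7 in the pools and 15.4 in the vector library, with the pools on either side.

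The fibrous corona, the outermost layer of the unattached kinetochore, held the largest upward difference of any member. CENPF, a large coiled-coil protein that peaks in G2 and M phase, was 92.6 in pool 1 and 86.0 in pool 2, against 31.0 in the vector library. The pools agreed closely and were 2.89-fold above the vector library, a log2 difference of 1.50 (SE 0.18, adjusted p = 0.0468 by limma with Benjamini-Hochberg adjustment). The call held under 7 of the 10 alternatives and was lost without a filter (adjusted p = 0.0511), with a pseudocount of 10 (0.0559) and with the row of the highest pool mean (0.0516), while the log2 difference was 1.03 or more under all 10. CENPF lies at chr1:214776528-214837917 on the plus strand (GRCh37), and no protein-coding gene overlaps it. CENPE, the plus-end kinesin that moves chromosomes to the metaphase plate, was 20.1 and 19.4 in the pools and 10.8 in the vector library. Its log2 difference of 0.82 (SE 0.26) did not pass the test (adjusted p = 0.199 by limma), although both pools were above the vector library and differed from each other by only -0.05 log2 units, pool 2 minus pool 1.

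The RZZ complex brings dynein and the MAD proteins to unattached kinetochores. ZWILCH was 15.4 and 13.2 in the pools and 5.88 in the vector library, more than 1 log2 unit above it in each pool. Its log2 difference of 1.15 (SE 0.29) did not pass the test (adjusted p = 0.149 by limma) and passed it under 5 of the 10 alternatives. ZWILCH lies at chr15:66797297-66842468 on the plus strand (GRCh37) and is overlapped on the opposite strand by RPL4, a ribosomal protein gene that read 1395 and 1156 in the pools and 834 in the vector library, so a small share of unstranded RPL4 reads could not be told apart from its own. KNTC1, the large subunit also called ROD, was 23.3 and 18.8 in the pools and 13.5 in the vector library, a difference of 0.59 (SE 0.30). ZW10 was 13.5 and 11.03 in the pools and 14.3 in the vector library, so the 3 subunits did not share a direction.

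**Figure D2:**
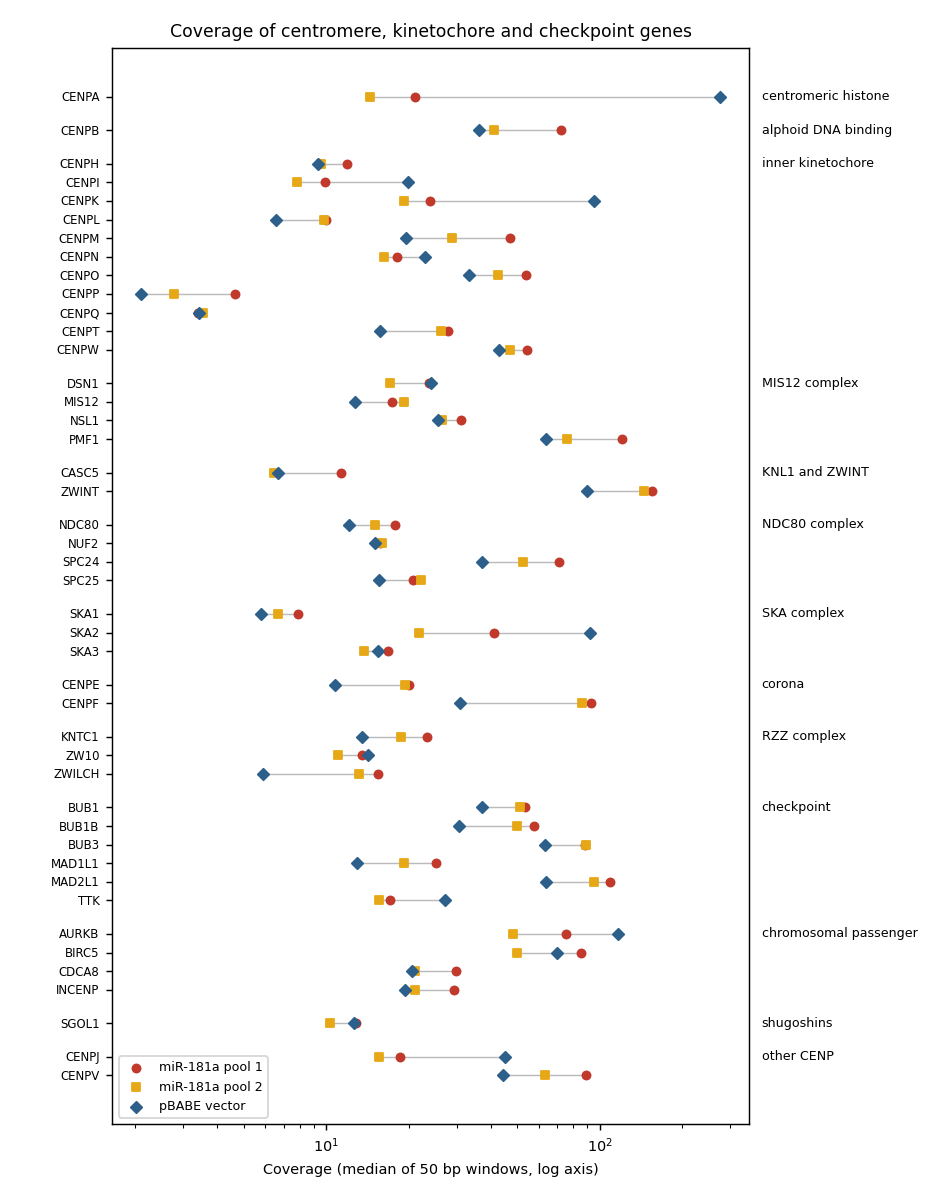
Coverage as deposited (log axis, median read density per transcript) of each of the 44 tested genes in miR-181a pool 1, miR-181a pool 2 and the pBABE vector library, grouped by complex, with a grey line spanning the 3 values of a gene. CENPF stands higher in both pools (92.6 and 86.0) than in the vector library (31.0), and CENPA stands far lower in both pools (21.1 and 14.4) than in the vector library (274).

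Of the 6 spindle checkpoint genes, 5 were above the vector library in both pools as deposited, against 44.6% of all tested genes. The median log2 difference of the 6 was 0.58, and none passed the test. BUB1B, which encodes the BUBR1 subunit of the inhibitor of the anaphase-promoting complex, was 57.2 and 49.8 in the pools and 30.6 in the vector library, a difference of 0.78 (SE 0.21, adjusted p = 0.166 by limma). MAD1L1, the platform that converts MAD2 to its active form, was 25.3 and 19.2 in the pools and 13.0 in the vector library, a difference of 0.72 (SE 0.33). MAD2L1, which encodes MAD2, was 109 and 95.5 in the pools and 63.6 in the vector library, a difference of 0.67 (SE 0.20). The pools did not overlap the vector library in these 3 genes, nor in BUB1 and BUB3. The differences of all these genes stayed above 0 under each of the alternatives tried, though only at 0.01 for BUB1 and 0.014 for BUB3 at the lowest. BUB3, which carries BUB1 and BUBR1 to the kinetochore, was 88.5 and 88.9 in the pools and 63.1 in the vector library, a difference of 0.48 (SE 0.17). BUB1, the kinase that marks the inner centromere, was 53.3 and 51.2 in the pools and 37.1 in the vector library, also 0.48 (SE 0.18). TTK, the MPS1 kinase at the head of the checkpoint, stood apart at 17.1 and 15.6 in the pools and 27.2 in the vector library, but its other row lay on the opposite side. Of rows at 0 in both pools, 15.1% had a vector value as large as that excess.

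The chromosomal passenger complex, which corrects attachments from the inner centromere, had a median log2 difference of 0.08, and none of its 4 genes passed. AURKB, its kinase, was 75.2 and 48.0 in the pools and 117 in the vector library. Both pools were below the vector library, with a log2 difference of -0.95 (SE 0.41, adjusted p = 0.264 by limma), and 2.44% of rows at 0 in both pools had as large a vector value. INCENP, the scaffold that activates the kinase, was 29.3 and 21.1 in the pools and 19.5 in the vector library. CDCA8, which encodes borealin, was 29.9 and 21.04 in the pools and 20.6 in the vector library. BIRC5, which encodes survivin, was 85.1 and 49.7 in the pools and 70.0 in the vector library, so the pools lay on either side. In the rows used, the enzyme of this complex had the lowest log2 difference of the 4 and its scaffold the highest, 0.34. Another BIRC5 row, at 0.50, lay above the scaffold.

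The shugoshins protect cohesin at the centromere. SGOL1 was 12.9 and 10.3 in the pools and 12.7 in the vector library, with no clear difference. SGOL2 has 3 rows, all blank in the vector library, with 4.74 to 5.19 in pool 1 and 4.62 to 4.90 in pool 2, so no comparison could be made for it. No row of any member was listed at 0 in a library where it had a value. Symbols of the CENP form also cover proteins outside the kinetochore core. CENPJ, a centriole assembly factor with the current symbol CPAP, was 18.6 and 15.6 in the pools and 45.1 in the vector library. Its log2 difference of -1.35 (SE 0.26) passed the size threshold and not the test (adjusted p = 0.103 by limma), and 5.47% of rows at 0 in both pools had as large a vector value. CENPV was 89.0 and 62.8 in the pools and 44.3 in the vector library, a difference of 0.74 (SE 0.33).

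The members were next set beside genes of similar level. The median pool mean was 21.6 for the members and 13.3 for all tested genes, and 6 of 44 members had a pool mean of 10 or less, against 5329 of the 12552 tested genes, of which 1535 were at 0 in both pools. Genes at 0 in both pools were left out of the ranges that follow. The lowest range still holds genes that passed the coverage filter only through their vector value. PECAM1, at 0 and 0.037 in the pools and 11.9 in the vector library, is an example. The median of all genes in that range is thus not a like background for the members. Among genes with a pool mean above 0 and up to 10, the median log2 difference was 0.30 for the members and -0.63 for all genes. Between 10 and 25 it was 0.03 for 18 members and 0.24 for all genes, and between 25 and 50 it was 0.34 for 7 members and 0.38 for all genes. Between 50 and 100 it was 0.58 for 11 members and 0.46 for all genes, and above 100 it was 0.70 for 2 members and 0.49 for all genes. The members' median was thus higher in 3 of these ranges, 1 of them the lowest with its unlike background, and lower in the other 2. Within their own ranges 23 members lay between the lower and upper quartile of all tested genes, 13 above and 8 below. Of the 13 above, 4 were in the lowest range. By percentile of the log2 difference in its range, CENPF stood at 99.7, ZWILCH at 96.9 and CENPM at 90.1. At the low end stood CENPA at 0.60, AURKB at 1.76, SKA2 at 2.38, CENPK at 3.85 and CENPJ at 7.99.

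**Figure D3:**
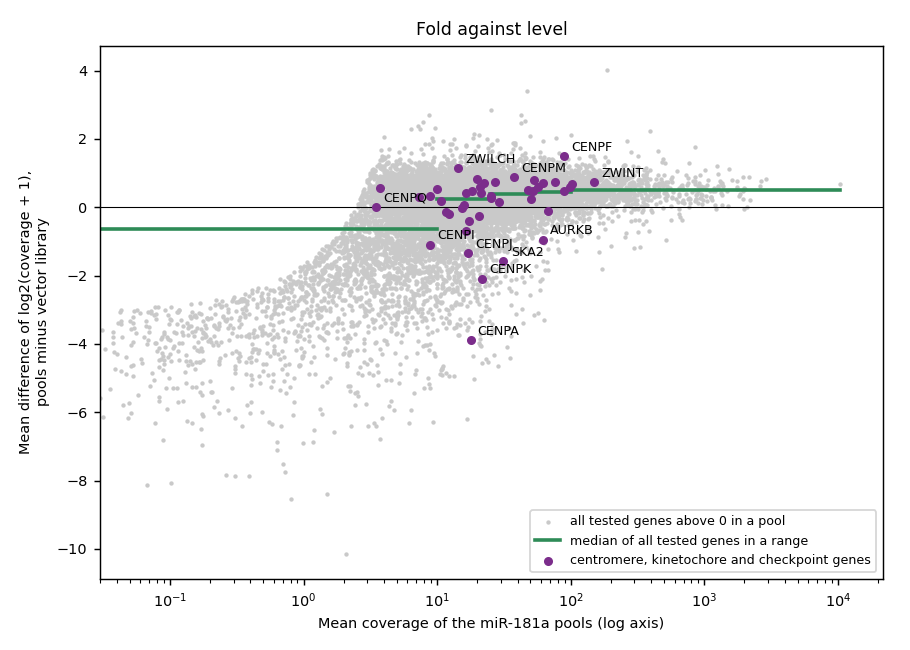
Log2 difference in coverage as deposited, mean of the miR-181a pools minus the pBABE vector library (y axis), against the mean coverage of the pools (x axis, log scale from 0.03, so genes at 0 in both pools are left out), for all tested genes in grey and the 44 members in purple, with green lines at the median of all tested genes in each range of level above 0. The grey cloud reaches far below 0 at low coverage, most members lie near the green lines, CENPF (1.50) lies near the upper edge and CENPA (-3.90) among the few genes far below 0 at its level.

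The pools differed from each other in the same sense for nearly all members. Of the 44, 39 were higher in pool 1 and 5 in pool 2, against 77.2% of all tested genes higher in pool 1. The median log2 difference, pool 2 minus pool 1, was -0.27 for the members and -0.27 for all tested genes, so members and background shared this offset. SKA2 had the largest, at -0.87, followed by CENPB at -0.80 and BIRC5 at -0.76, while MIS12 stood highest at 0.14. The SE of SKA2, 0.54, was accordingly the largest among the 44 members.

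Rows of the same gene did not always agree. Among the members the median log2 range between rows was 0.18 in pool 1, 0.15 in pool 2 and 0.17 in the vector library, so the vector library was not wider for the typical member. Among the 18 tested members with several rows, the vector values of the rows spanned at least 1 log2 unit in 5 (CENPN, DSN1, SGOL1, SKA2 and TTK), and the values in pool 1 or pool 2 did so in 0. Some came close to that threshold in the pools, with 0.98 in pool 1 for CENPM, against 0.19 in the vector library, and 0.84 and 0.82 in pool 2 for SKA2 and SGOL1. Over the 4541 tested genes with several rows, the shares were 4.60% in pool 1, 4.34% in pool 2 and 35.3% in the vector library. TTK had rows that were close in the pools and apart in the vector library. Its row NM_001166691 was 17.1 and 15.6 in the pools and 27.2 in the vector library, a log2 difference of -0.70, and its row NM_003318 was 17.1 and 16.5 in the pools and 11.3 in the vector library, a difference of 0.53. The first of these rows was used because the choice went by the mean over all 3 libraries, which favours rows with a high vector value. The sign of TTK therefore depended on which row stood for the gene.

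The same held for SKA2, CENPN, DSN1, SGOL1 and BIRC5. The SKA2 row NM_182620 was 52.2 and 40.0 in the pools and 44.2 in the vector library, a log2 difference of 0.05, beside -1.59 for the row used. The CENPN rows NM_018455 and NM_001100625 differed by 0.37 and 0.48, beside -0.40 for the row used. For DSN1, 3 of the 5 rows lay between 0.71 and 0.99, with NM_001145318 at 28.9 and 20.2 in the pools and 11.7 in the vector library, and the other 2 lay at -0.25 and -0.32. The 6 SGOL1 rows ran between -1.03 and 0.79, and the 3 BIRC5 rows between -0.10 and 0.50. By contrast both CENPA rows had nearly the same vector value, and the 3 MAD1L1 rows were identical in all libraries. CENPF, CENPK, CENPJ, CENPI, AURKB and ZWILCH have a single row, so this comparison could not be made for them.

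**Figure D4:**
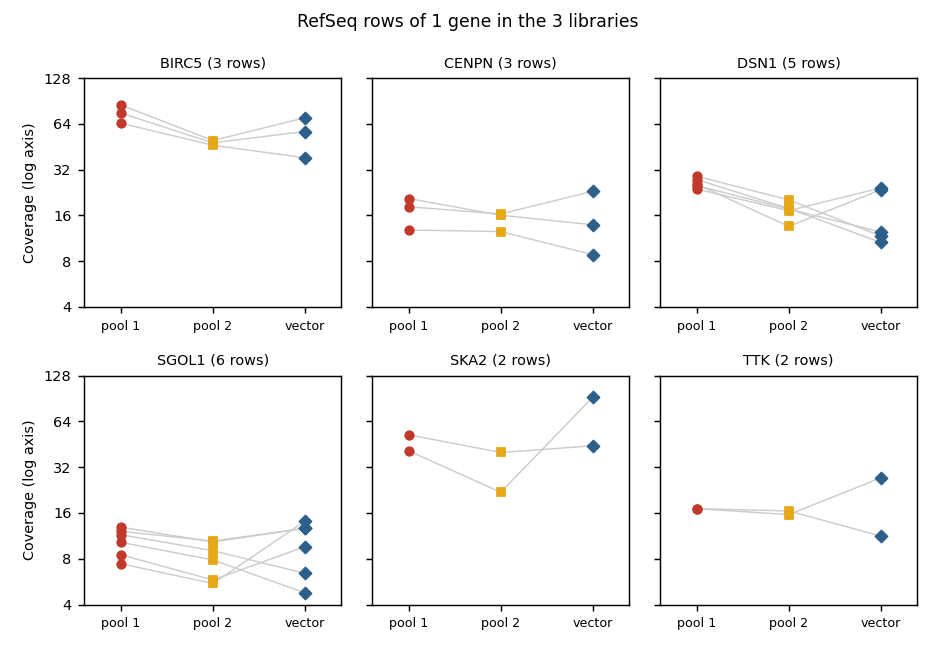
Coverage as deposited (log axis) of each RefSeq row of the members whose rows lie on opposite sides of the pBABE vector library, in miR-181a pool 1 (circles), miR-181a pool 2 (squares) and the vector library (diamonds), with a line joining the values of a row. The TTK rows read 17.1 and 17.1 in pool 1, 15.6 and 16.5 in pool 2, and 27.2 and 11.3 in the vector library.

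Genes that work next to the kinetochore were read from 4 further lists. Their counts above and below the vector library in both pools stand beside 44.6% and 41.8% of all tested genes as deposited. Their calls by the test stand beside 1.00% of all tested genes upward and 21.7% downward. Those by the size threshold stand beside 2.53% and 27.3%. Of the centromere proteins under other symbols and the CENPA loading factors, 10 were tested and none passed the test or the size threshold, with a median log2 difference of 0.11. HJURP, the chaperone that deposits CENPA, was 21.1 and 15.9 in the pools and 20.4 in the vector library, so the vector excess of CENPA was not shared by its chaperone. RBBP4, a histone chaperone, stood highest at 0.75 and MLF1IP, the older symbol of CENPU, lowest at -0.15.

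Of 24 tested genes of the anaphase-promoting complex and checkpoint effectors, 11 were above the vector library in both pools and 10 below, with a median of -0.04. MAD2L1BP, which removes MAD2 to silence the checkpoint, was lower, at 42.5 and 29.2 in the pools and 497 in the vector library, a log2 difference of -3.78 (SE 0.35, adjusted p = 0.0288 by limma). That was the 1 call in this list, and ANAPC5 stood highest at 1.02. Of 20 tested cohesin and condensin genes, 15 were above the vector library in both pools as deposited and 2 below, with a median of 0.57 as deposited and of 0.10 when each pool was shifted by genes with a pool mean above 50. RAD21, the cohesin subunit cut by separase, was 263 and 243 in the pools and 108 in the vector library, past the size threshold at 1.22 (SE 0.19) and not past the test (adjusted p = 0.069 by limma). STAG2, another cohesin subunit, was lower, at 39.4 and 31.1 in the pools and 766 in the vector library, -4.41 (SE 0.26, adjusted p = 0.0122 by limma), the lowest of its list.

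The list of mitotic kinases, cyclins, MuvB subunits and centromere partners had 30 tested genes, of which 23 were above the vector library in both pools and 4 below, with a median of 0.53 as deposited and 0.06 under the same shift. CDK1, the mitotic kinase, was highest, at 162 and 133 in the pools and 67.6 in the vector library, a difference of 1.11 (SE 0.23, adjusted p = 0.115 by limma). LIN52, a MuvB subunit, was higher, at 4.20 and 4.02 in the pools and 1.43 in the vector library, 1.07 (SE 0.04, adjusted p = 0.0047 by limma). The coverage of LIN52 was the lowest and its SE the smallest of this list, and its vector value is near the floor. LIN37, another MuvB subunit, was also above the vector library in both pools as deposited, at 5.54 and 4.86 in the pools and 4.58 in the vector library, without passing the test. The MuvB subunits LIN54 and LIN9 lay on the other side. LIN54, which binds the CHR, was 6.16 and 5.94 in the pools and 20.1 in the vector library, and LIN9 was 12.2 and 8.13 in the pools and 25.5 in the vector library, both past the size threshold and not the test. PPP2R5A, a phosphatase subunit that acts at the centromere, was lower, at 25.1 and 21.3 in the pools and 158 in the vector library, -2.72 (SE 0.23, adjusted p = 0.024 by limma).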

How the data were processed

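Poly-A RNA of 2 miR-181a pools and 1 pBABE vector library was sequenced. Reads were mapped to hg19, per the submitters' processing notes, and the authors took the median of a density profile in 50 bp windows as the coverage of each transcript, per the labels' protocols. The sources used here do not give the aligner. Log transformation and quantile normalization are named in the labels' protocols, yet the authors' deposited signal, the coverage, is linear with quantiles that differ between libraries. It holds no counts, so depth is unknown. Rows blank in the vector library (308) were left out, and a gene with several rows was represented by its row of highest mean over all 3 libraries. That mean includes the vector library, so the choice favours rows with a vector excess and thus differences below 0. Genes above the lowest 25% of mean coverage were tested with limma 3.58.1 in R 4.3.3 on log2(coverage + 1), with a variance trend and Benjamini-Hochberg adjustment at 0.05, two-sided. The spread comes from the pools alone (1 residual degree of freedom), and the vector library is taken to vary like them. The fit was tried on simulated data in which all 3 libraries varied like the pools. That simulation cannot show how the test behaves if the vector library varies otherwise. A pool alone leaves no residual degree of freedom. Filter, pseudocount, scaling, row choice, variance trend and size threshold were varied. Members and lists were chosen with earlier results of these data known. Named genes were those past the test or the size threshold, the 2 highest and 2 lowest of each complex, those with rows on opposite sides, and of each further list those past either threshold with its highest and lowest. HJURP was added after its values were seen. Untranslated regions were read on GRCh37 with GENCODE annotation, promoters and the microRNA from RefSeq tables on GRCh38.p14.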

Additional observations from a re-analysis of the deposited data

How the results depend on the processing

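No paired analysis was possible because the vector group has 1 library. The lone vector library and unknown depth limit every comparison. Under all alternatives with a test, CENPF stayed above and CENPA and CENPK below the vector library. Members called upward and downward numbered 1 and 2. They were 0 and 1 without a filter, 2 and 4 with the filter at the median, 0 and 1 with a pseudocount of 10, 30 and 6 with library medians set equal, 19 and 4 after quantile normalization, 3 and 11 with shifts by genes with a mean above 50, 2 and 12 with shifts by genes with a pool mean above 50, 0 and 1 with the row of the highest pool mean, and 2 and 0 without a variance trend. With the mean of rows 1 was called downward, and with every row fitted as its own feature, an alternative chosen after seeing the data, 0 were called upward. Among all genes, 126 were called upward and 2725 downward. These became 278 and 5626 without a filter, 402 and 1476 with the filter at the median, 1039 and 5390 and then 710 and 5784 with the 2 shifts, while 6355 were called upward with medians set equal, 4598 after quantile normalization and 216 with every row. By size, 2 members were higher and 4 lower. With a pseudocount of 10, 1 was higher, with medians set equal 11 were higher and 2 lower, after quantile normalization 13 were higher, with either shift 0 were higher, with the second shift 7 were lower, and at a threshold of 0.58 it was 6 and 7. The members' median of 0.38 became 0.79 with medians set equal, 0.71 after quantile normalization, and -0.0044 and -0.094 with the shifts. Leaving out a pool gave 2 to 3 members higher by size, 4 to 6 lower and a median of 0.18 to 0.50.

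Single members turned sign as follows; the cause was not tested beyond the shift itself. With the shift by genes with a mean above 50, log2 differences became -0.064 for CASC5, -0.11 for CDCA8, -0.20 for CENPH, -0.36 for CENPQ, -0.15 for CENPW, -0.042 for INCENP, -0.22 for NSL1, -0.31 for NUF2 and -0.093 for SKA1. With the shift by genes with a pool mean above 50 they became -0.15 for CASC5, -0.20 for CDCA8, -0.29 for CENPH, -0.45 for CENPQ, -0.24 for CENPW, -0.13 for INCENP, -0.057 for NDC80, -0.31 for NSL1, -0.40 for NUF2, -0.18 for SKA1 and -0.041 for SPC25. With library medians set equal they became 0.31 for BIRC5, 0.0205 for CENPN, 0.17 for DSN1, 0.29 for SGOL1, 0.40 for SKA3 and 0.21 for ZW10, and after quantile normalization 0.065 for DSN1, 0.48 for SGOL1, 0.45 for SKA3 and 0.31 for ZW10. With the mean of rows they became 0.12 for BIRC5, 0.070 for CENPN and 0.35 for DSN1, and with the row of the highest pool mean 0.37 for CENPN, 0.98 for DSN1, 0.047 for SKA2 and 0.53 for TTK.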
